A study of Sus scrofa with 32 samples.

Results

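Transcripts of 5 cytokine genes were followed across lymphocytes of the pig ileum and blood: IFNG (interferon gamma), TNF (tumor necrosis factor), LTA (lymphotoxin alpha), LTB (lymphotoxin beta) and CSF2 (granulocyte-macrophage colony-stimulating factor). The genes were taken by symbol from the 25880 features of droplet-based single-cell RNA sequencing matrices, and all 5 of 5 were present. Samples came from 2 healthy mixed-breed pigs, 7 weeks of age, pig 1 labelled female and pig 2 labelled male. Each pig gave 4 libraries: ileum with Peyer's patches (PP), ileum without Peyer's patches (non-PP), a full cross-section of ileum (whole ileum), and peripheral blood mononuclear cells (PBMC), each sequenced in 4 runs that were deposited as 1 matrix of counts. No pig was treated or infected, and the ileal suspensions mixed epithelium, lamina propria and submucosa, so the layer from which a cell came is not known.

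Interferon gamma is the main macrophage-activating cytokine of T cells and natural killer cells and acts through a receptor of IFNGR1 and IFNGR2. TNF and secreted lymphotoxin alpha bind the receptors TNFRSF1A and TNFRSF1B, whereas lymphotoxin beta anchors lymphotoxin alpha on the cell membrane as a heterotrimer that engages LTBR, a receptor required for the formation of Peyer's patches. CSF2 signals through CSF2RA and CSF2RB on myeloid cells and in the gut is known as a product of T cells and group 3 innate lymphoid cells (ILCs). On the Sscrofa11.1 assembly LTA (ENSSSCG00000001403, chr7:23696387-23698280), TNF (ENSSSCG00000001404, chr7:23699635-23702393) and LTB (ENSSSCG00000001405, chr7:23704842-23707036) are neighbours on chromosome 7. IFNG (ENSSSCG00000032963) is at chr5:32477906-32482670 and CSF2 (ENSSSCG00000023737) at chr2:134354724-134357155, and all 5 are annotated as protein-coding.

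Matrices held 21134542 to 40111934 unique molecular identifiers (UMIs) each, and 48629 cells passed a minimum of UMIs and of genes and a limit on mitochondrial UMIs (3776 to 7704 cells per library, median depth 2577.5 to 3583.5 UMIs per cell). One library went against its label: Y-linked transcripts (DDX3Y, EIF1AY and KDM5D) reached 197 CPM (UMIs of a gene scaled to 1000000 UMIs of the sample) in whole ileum of pig 1, compared with 0 to 0.224 CPM in the other libraries of pig 1 and 108 to 215 CPM in those of pig 2. That library is therefore written as the library labelled whole ileum pig 1, and values of pig 1 that moved by over 1.5 times and calls that were lost without it are given beside the results. Barcodes that occurred in more than 1 library accounted for 2653 cells, with 21 to 80 barcodes shared by any pair of libraries.

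Each cell was placed in at most 1 gate by the UMIs it carried. The CD4 gate (1496 cells), the CD8B gate (3853 cells) and the TRDC gate (5773 cells, TRDC being the constant region of the γδ T cell receptor) required the named gene and excluded the other 2 together with CD79B. The CD79B gate (16540 cells) took cells with CD79B, a B lineage gene, and no UMI of CD3E, CD4, CD8B or TRDC, and the CD3E-zero CD2 gate (3880 cells) took cells with CD2 but no UMI of CD3E, CD4, CD8B, TRDC or CD79B. The remaining 17087 cells (35.1%) were left ungated. Levels are the CPM of a gene within the UMIs of the gate, with the ileal value of a pig summed over its 3 ileal libraries. The pig, as labelled, was the replicate, n = 2 in every group.

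Markers fixed for each cell type showed that the gates were not pure. In the CD4 gate of ileum 7 of 7 myeloid markers were present, summing to 3574 CPM in pig 1 and 3917 CPM in pig 2, compared with 510 and 909 CPM in PBMC, where the macrophage gene C1QA had no UMI. These markers were highest in whole ileum (6191 and 7363 CPM), so that the pig 1 sum depends on the library labelled whole ileum pig 1. In ileum the CD3E-zero CD2 gate still carried CD3G at 1288 and 1701 CPM against 411 and 263 CPM in PBMC, whereas KIT, a gene of immature and group 3 innate lymphoid cells, was at 96.0 and 89.9 CPM against 12.6 and 4.77 CPM. Most ileal cells of that gate thus carried CD3D or CD3G without a CD3E UMI. The authors described ileal group 1 ILCs that largely lacked CD3E yet expressed CD3G and CD247, so these transcripts do not mark T cells alone. Values after removing every cell with a CD3D or CD3G UMI are given beside the results of that gate. The removal left 142 of 698 and 179 of 1188 ileal cells, and 230 of 642 and 622 of 1352 in PBMC. It may take out group 1 ILCs as well as T cells, so the cells left are another mix and not a purer gate. Antibody-secreting cell markers of the gate summed to 1085 and 3469 CPM in ileum against 153 and 107 CPM in PBMC. Epithelial markers summed to 1128 and 379 CPM against 0 and 0.722 CPM, and myeloid markers to 1590 and 2168 CPM against 1911 and 1992 CPM. The removal is not directed at these markers, and their part in the results was not tested. In PBMC the red cell and platelet markers summed to between 1357 and 21967 CPM over gates and pigs, compared with at most 1194 CPM in any gate of the ileal libraries; their part in the results was not tested.

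The first comparison asked which lymphocytes carried each cytokine transcript. IFNG was most abundant in the CD8B gate of ileum (165 CPM in pig 1 and 201 CPM in pig 2), followed by the CD4 gate (153 and 83.0 CPM), the CD3E-zero CD2 gate (68.2 and 61.9 CPM) and the TRDC gate (44.5 and 48.1 CPM). It was nearly absent from the CD79B gate (3.82 and 3.02 CPM). The CD8B and CD4 values of pig 1 differed by less than the difference between the pigs in the CD4 gate, whereas the CD3E-zero CD2 and TRDC values did not overlap. Without the library labelled whole ileum pig 1, the CD4 gate of pig 1 was above its CD8B gate. In PP the CD4 gate was above the CD8B gate in pig 1 (201 against 160 CPM) and below it in pig 2 (64.2 against 145 CPM). In PBMC the CD8B gate again had the highest level (46.8 and 47.4 CPM), and the CD79B gate the lowest (3.44 and 2.98 CPM).

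**Figure D1:**
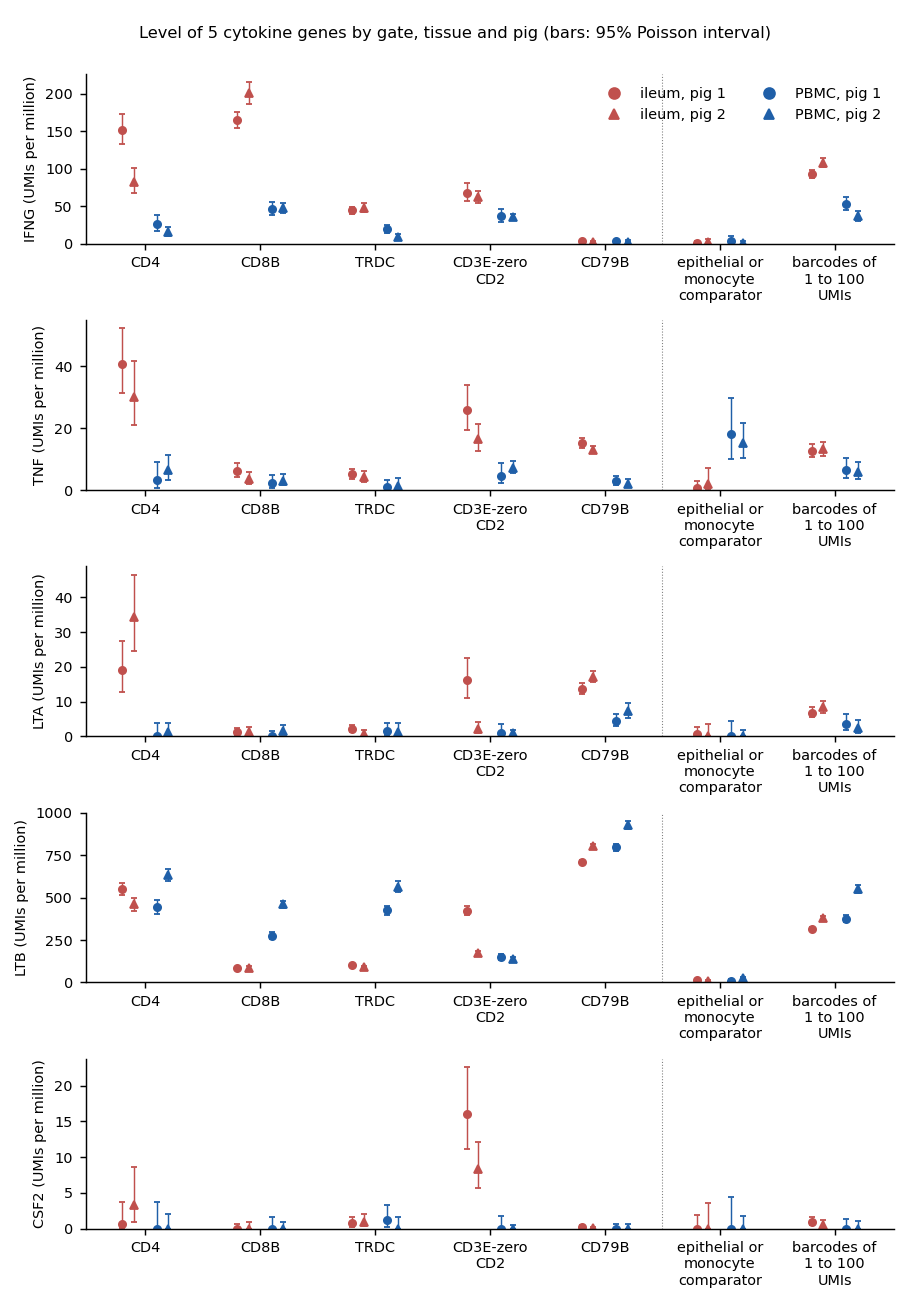
Level of IFNG, TNF, LTA, LTB and CSF2 (CPM, linear axes) in 5 gates, in a comparator without lymphocyte genes and in barcodes of 1 to 100 UMIs, for ileum (red) and PBMC (blue), with a circle for pig 1 and a triangle for pig 2 and bars for 95% Poisson intervals. IFNG peaked in the CD8B gate of ileum at 165 and 201 CPM, LTB in the CD79B gate, and CSF2 stood out in a single gate of ileum, the CD3E-zero CD2 gate, at 16.1 and 8.39 CPM. In ileum of pig 1 the IFNG and LTB peaks did not hold without the library labelled whole ileum pig 1.

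TNF, a fast-acting inflammatory cytokine, was distributed differently. Its highest ileal level was in the CD4 gate (40.8 and 30.2 CPM), followed by the CD3E-zero CD2 gate (25.8 and 16.5 CPM) and the CD79B gate (15.1 and 13.1 CPM), and its lowest in the CD8B gate (6.21 and 3.49 CPM) and the TRDC gate (5.06 and 4.20 CPM), which overlapped each other. In blood no lymphocyte gate exceeded 7.22 CPM. CD14-positive cells without CD3E, CD2 or CD79B, the comparator for PBMC, held 18.0 and 15.2 CPM, more than any blood lymphocyte gate, so for TNF these cells do not serve as a negative reference.

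LTB had the broadest expression. B lineage cells of the CD79B gate carried 713 and 805 CPM in ileum and 796 and 929 CPM in PBMC, the highest level in each tissue. The CD4 gate was next in ileum (550.2 and 460.1 CPM), whereas the CD8B gate (83.1 and 85.8 CPM) and the TRDC gate (101 and 89.4 CPM) were low. This order did not hold in pig 1 without the library labelled whole ileum pig 1. LTB of pig 1 was then highest in the CD3E-zero CD2 gate, followed by the CD4 and CD79B gates. In PP these gates had 1302, 707 and 584 CPM in pig 1 and 565, 862 and 897 CPM in pig 2. In non-PP alone LTB was at 41.7 and 52.6 CPM in the CD4 gate, overlapping the TRDC gate at 45.9 and 37.8 CPM. The CD8B gate of non-PP had 19.0 and 32.5 CPM of LTB and the CD79B gate 481 and 694 CPM. The ileal levels pool PP, non-PP and whole ileum in a mix that differed by gate. The part of this mix in the order of LTB over gates was not tested. LTA, the partner of LTB in the membrane heterotrimer, was detected at 19.1 and 34.4 CPM in the ileal CD4 gate. It was at 13.7 and 17.2 CPM in the ileal CD79B gate, and at no more than 2.02 CPM in the ileal CD8B and TRDC gates.

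Each gate was tested against the mean of the other 4 gates of the same tissue (edgeR quasi-likelihood, Benjamini-Hochberg adjustment over 10564 genes). This mean is on the log2 scale and includes the CD79B gate, where IFNG over both pigs was at 3.36 CPM in ileum and 3.21 CPM in PBMC. That low level raises the IFNG differences of the other gates in both tissues, so they give no order among those gates. The ileal sums pool the 3 dissections in a mix that differed by gate, and its part in the calls was not tested. In non-PP alone LTB was at 41.7 and 52.6 CPM in the CD4 gate and 45.9 and 37.8 CPM in the TRDC gate. LTA had 0 UMIs in that CD4 gate. IFNG was at 95.3 and 98.2 CPM there, against 46.9 and 55.8 CPM in the TRDC gate. The CD4 gate of ileum also held the myeloid transcripts given above. In ileum 16 of 25 pairs of gene and gate passed an adjusted p of 0.05. All 4 of IFNG, TNF, LTA and LTB were higher in the CD4 gate, by 1.65 ± 0.21, 1.95 ± 0.24, 2.81 ± 0.54 and 1.28 ± 0.24 on the log2 scale (± SE), against a background of 1325 of all 10564 genes called. In the CD8B gate (8.62% called) IFNG was higher by 2.52 ± 0.19 while TNF, LTA and LTB were lower by -1.52, -2.86 and -1.88. The TRDC gate (9.53% called) was low in TNF, LTA and LTB alike, the CD3E-zero CD2 gate (15.8% called) was high in TNF and CSF2, and the CD79B gate (48.5% called) was high in LTB by 2.02 ± 0.23 and LTA by 1.84 ± 0.47 and low in IFNG by -4.71 ± 0.30. Leaving pig 1 or pig 2 out of the gate tested reduced these calls from 16 to 12 or 10, and without the library labelled whole ileum pig 1 the LTA calls in the CD8B and TRDC gates were lost (adjusted p = 0.0933 and 0.0827, edgeR).

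In PBMC 7 of 25 pairs passed. IFNG was higher in the CD8B gate (1.79 ± 0.22, 7.22% of genes called), LTB and LTA were higher in the CD79B gate (1.43 ± 0.24 and 2.70 ± 0.66, 23.1% called) and IFNG was lower there (-2.93 ± 0.31). In the CD3E-zero CD2 gate (24.5% called), in which blood natural killer cells would fall, IFNG was higher by 1.31 ± 0.23, TNF was higher by 1.29 ± 0.31 and LTB was lower by -1.92 ± 0.30. Myeloid markers summed to 1911 and 1992 CPM in this gate of blood, compared with 143 to 909 CPM in the other gates. The CD14-positive comparator, which was high in TNF, had 4001 and 2863 CPM of them. The part of myeloid cells in these calls was not tested. No member passed in the CD4 gate (5.14% called) or the TRDC gate (3.00% called) of blood. Without CD3D- or CD3G-positive cells IFNG in the CD3E-zero CD2 gate of blood turned from above to below the other gates (-1.19, adjusted p = 0.0228, edgeR), and in ileum it was below them as well (-1.19, adjusted p = 0.0435, edgeR).

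B lineage cells of the CD79B gate made up 32.6% and 45.2% of ileal cells in pig 1 and pig 2. The CD79B gate contained 55.4% and 70.7% of all LTB UMIs in ileum of pig 1 and pig 2, 46.5% and 68.0% of LTA UMIs, and 35.2% and 51.6% of TNF UMIs, the last close to its share of cells. Of ileal IFNG UMIs, 51.5% and 50.3% lay in ungated cells, which were 37.8% and 28.9% of ileal cells. The CD8B gate held 25.6% and 25.5% of them, with 8.62% and 6.30% of ileal cells. The CD3E-zero CD2 gate held 55.9% and 63.0% of CSF2 UMIs, with 4.10% and 6.47% of ileal cells.

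**Figure D2:**
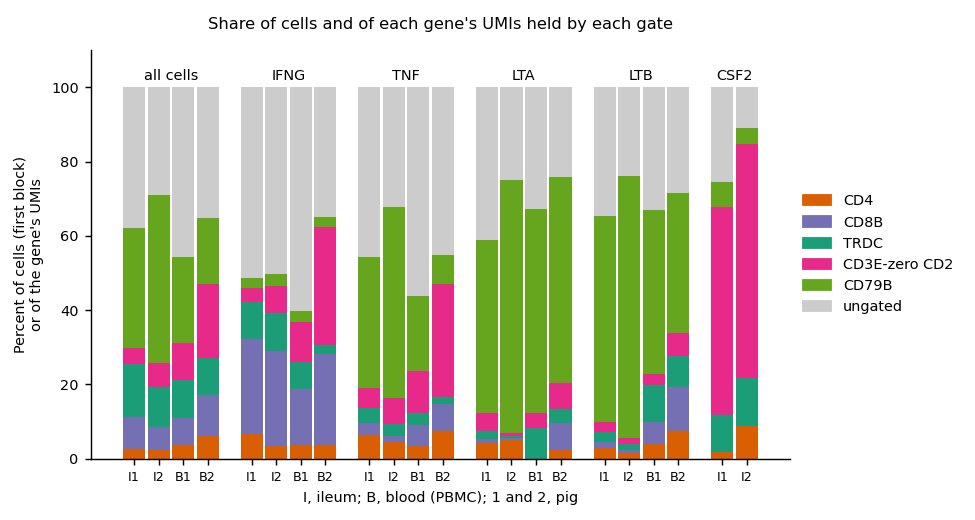
Stacked bars give the percent of cells (first block) and of each gene's UMIs held by the 5 gates and by ungated cells, for ileum (I) and blood (B) of pig 1 and pig 2. The CD79B gate held 55.4% and 70.7% of ileal LTB UMIs, and the CD3E-zero CD2 gate 55.9% and 63.0% of ileal CSF2 UMIs; CSF2 is not drawn for blood, where it had 3 UMIs in pig 1 and 0 in pig 2.

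Detection per cell was compared after thinning every cell to the smallest depth that the filter allowed. With this depth IFNG was detected in 14.3% and 16.3% of ileal CD8B gate cells and in 5.22% and 5.60% of those from PBMC, and in 10.5% and 8.52% against 3.49% and 0.978% of CD4 gate cells. As counted, before thinning, the CD8B shares were 25.7% and 27.2% in ileum and 16.1% and 17.9% in PBMC. A few cells carried many copies: the highest ileal CD8B gate cell had 66 IFNG UMIs in pig 1 and 19 in pig 2, and 36 and 34 cells had 5 or more. LTB was detected in 49.9% and 51.7% of ileal CD79B gate cells after thinning, and in 6.47% and 7.09% of ileal CD8B gate cells against 28.2% and 39.6% of those in PBMC.

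Free RNA was gauged from barcodes of 1 to 100 UMIs and from cells that should lack the genes. IFNG reached 93.0 and 108 CPM in the low-count barcodes of ileum, above its level over all cells passing the filters (54.4 and 44.2 CPM). Even so, the CD79B gate carried 0% to 7.86% of the low-count level over the 6 ileal libraries, and epithelial cells (EPCAM and KRT8 without PTPRC or lymphocyte genes) at most 2.82%. For LTB the epithelial cells carried at most 8.03% of the low-count level. The CD8B gate of ileum exceeded the low-count level of IFNG in 6 of 6 libraries, at 117% to 304% of it, whereas the CD4 gate was below it in 4 of 6 libraries, the CD3E-zero CD2 gate in 5 of 6 and the TRDC gate in 6 of 6, the last at 36.5% to 59.9%. In PBMC the low-count barcodes had 52.9 and 36.7 CPM of IFNG, below those of ileum, in the direction of the tissue difference. For TNF they had 6.61 and 5.93 CPM in PBMC and 1.85 and 5.85 CPM in non-PP. PP and whole ileum had 12.2 to 22.4 CPM of TNF in these barcodes. With 10% of each sum removed in the proportions of the low-count barcodes, 54 of 59 results over all comparisons kept direction and call. The other 5 lost their call, and the 59 include results that had no call to lose. Of the lost calls only those between PP and non-PP are named below. Removal of a larger share was not tested. In thinned cells IFNG was detected in 0.457% and 0% of epithelial comparator cells and LTB in 0% and 3.00%.

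The second comparison asked how lymphocytes of the ileum differed from those of the blood. Ileal tissue was digested with enzyme and blood was not, so tissue and cell preparation cannot be told apart in any difference below. With the 3 ileal dissections pooled, in a mix that differed by gate, IFNG was higher in ileum in all 3 T cell gates. LTB was lower in ileum in the CD8B and TRDC gates but not in the CD4 or CD79B gate. TNF of the pooled sums was higher in ileum in 4 of the 5 gates. In non-PP alone TNF overlapped the blood levels in each of these gates. CSF2 was higher in ileum in the CD3E-zero CD2 gate, which had no CSF2 UMI in blood. Of 25 pairs of gene and gate, 13 passed, with 3 of 5 members in the CD4 gate (10.6% of all genes called), 2 in the CD8B gate (12.6%), 3 in the TRDC gate (19.0%), 4 in the CD3E-zero CD2 gate (33.0%) and 1 in the CD79B gate (36.0%).

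IFNG in the CD8B gate was 165 and 201 CPM in ileum and 46.8 and 47.4 CPM in PBMC, a difference of 1.95 ± 0.28 on the log2 scale (adjusted p = 0.000506, edgeR). In the CD4 gate it was 153 and 83.0 CPM against 26.7 and 15.7 CPM (2.49 ± 0.33, adjusted p = 0.00029, edgeR), and in the TRDC gate 44.5 and 48.1 CPM against 19.3 and 8.65 CPM (1.74 ± 0.31, adjusted p = 0.00177, edgeR). Both ileal values lay above both blood values in each of these gates, also with the library labelled whole ileum pig 1 left out, when pig 1 had 138 CPM in the CD8B gate, 182 CPM in the CD4 gate and 42.7 CPM in the TRDC gate. Leaving out pig 2 put the adjusted p at 0.052 in the CD8B gate and 0.0636 in the TRDC gate (edgeR). The CD3E-zero CD2 gate had 68.2 and 61.9 CPM in ileum and 37.0 and 35.7 CPM in PBMC, a difference of 0.75 ± 0.29 that missed the threshold (adjusted p = 0.0607, edgeR) and passed it with the replicate block, a fit in which the pig pairs the sums (0.73, adjusted p = 0.0267, edgeR). In that gate without CD3D- or CD3G-positive cells IFNG was low in both tissues, at 18.1 and 19.6 CPM against 10.5 and 4.43 CPM (1.52, adjusted p = 0.0407, edgeR). The CD79B gate did not differ detectably, at -0.05 ± 0.35, and the tissue difference of IFNG was smaller there than in the other 4 gates (-1.79 ± 0.40, adjusted p = 0.00523, edgeR, 22.9% of genes called in that test).

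TNF in the CD4 gate went from 3.08 and 6.51 CPM in PBMC to 40.8 and 30.2 CPM in ileum (2.73 ± 0.40, adjusted p = 0.00067, edgeR). That tissue difference was not called larger than in the other 4 gates (1.02 ± 0.47, adjusted p = 0.295, edgeR). In the CD79B gate it went from 2.95 and 2.04 CPM to 15.1 and 13.1 CPM (2.35 ± 0.34, adjusted p = 0.000142, edgeR). In the CD3E-zero CD2 gate the difference was 1.63 ± 0.34 (adjusted p = 0.00256, edgeR; 1.02 and 0.107 without pig 1), with pig 1 at 25.8 CPM, or 39.0 CPM without the library labelled whole ileum pig 1, and without CD3D- or CD3G-positive cells it was 2.97 (adjusted p = 3.15e-05, edgeR), from 8.55 and 7.09 CPM in PBMC to 75.9 and 52.9 CPM in ileum. TRDC cells differed by 1.95 ± 0.51 (adjusted p = 0.0166, edgeR) on 66 ileal and 6 blood UMIs, and the call was lost with stricter cell filters (adjusted p = 0.126, edgeR) and without either pig (0.231 and 0.115). CD8B gate levels of 6.21 and 3.49 CPM against 2.13 and 3.01 CPM were not called apart (0.90 ± 0.42, adjusted p = 0.186, edgeR). In non-PP alone TNF was at 5.95 and 28.0 CPM in the CD4 gate and 0 and 4.01 CPM in the CD79B gate. It was at 8.75 and 5.40 CPM in the CD3E-zero CD2 gate (PBMC 4.68 and 7.22 CPM). In the TRDC gate it was at 0.493 and 2.31 CPM (PBMC 1.14 and 1.30 CPM). These non-PP levels overlapped those of PBMC in each gate. The part of the dissection mix in the TNF differences was not tested. The CD4 gate of ileum also held the myeloid transcripts described above; requiring CD3E in each cell of the gate left the TNF difference at 2.77 (adjusted p = 0.000335, edgeR) and that of IFNG at 2.73 (adjusted p = 0.00055, edgeR).

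**Figure D3:**
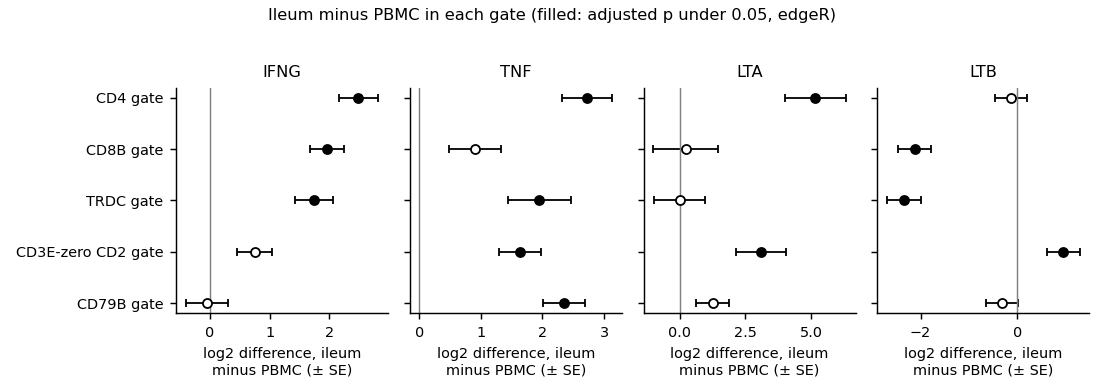
Log2 difference between ileum and PBMC (± SE) of IFNG, TNF, LTA and LTB in each gate, from 1 fit over 20 sums; filled points had an adjusted p under 0.05 (edgeR). IFNG and TNF lay to the right of 0 in the CD4 and TRDC gates, at 2.49 and 2.73 and at 1.74 and 1.95, whereas LTB lay to the left of 0 in the CD8B and TRDC gates at -2.13 and -2.35.

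LTB took the opposite course in the CD8B and TRDC gates. In the CD8B gate it fell from 274 and 460.2 CPM in PBMC to 83.1 and 85.8 CPM in ileum (-2.13 ± 0.35, adjusted p = 0.0012, edgeR; 0.0775 without pig 2), with pig 1 at 47.4 CPM without the library labelled whole ileum pig 1, and in the TRDC gate from 424 and 565 CPM to 101 and 89.4 CPM (-2.35 ± 0.35, adjusted p = 0.000445, edgeR). CD4 gate levels overlapped between tissues, at 550.2 and 460.1 CPM in ileum and 442 and 632 CPM in PBMC (-0.14 ± 0.33), and CD79B gate levels of 713 and 805 CPM against 796 and 929 CPM overlapped too and were not called apart (-0.32 ± 0.33). The ileal sums pool 3 dissections in a mix that differed by gate. Non-PP gave 7515118 of 14102649 ileal UMIs in the TRDC gate and 4454124 of 9196342 in the CD8B gate. It gave 453150 of 2714500 in the CD4 gate and 382402 of 55127077 in the CD79B gate. In non-PP alone LTB was at 41.7 and 52.6 CPM in the CD4 gate and 481 and 694 CPM in the CD79B gate. In the CD3E-zero CD2 gate of non-PP it was at 182 and 34.6 CPM, above the blood levels of that gate in pig 1 and below them in pig 2. The part of the mix in these differences was not tested. In the CD3E-zero CD2 gate LTB was higher in ileum, at 423 and 171 CPM against 150 and 138 CPM (0.95 ± 0.34, adjusted p = 0.0434, edgeR); without pig 1 the difference was 0.14 (adjusted p = 0.818, edgeR), and without the library labelled whole ileum pig 1 it was 1.47 (adjusted p = 0.0414, edgeR), with pig 1 at 698 CPM. Restricted to cells without CD3D and CD3G, it was 1238 and 616 CPM in ileum, over 142 and 179 cells, and 78.9 and 56.5 CPM in PBMC (3.69, adjusted p = 5.14e-06, edgeR). The tissue difference of LTB was below that of the other 4 gates in the TRDC gate (-1.94 ± 0.38, adjusted p = 0.0317, edgeR, 0.729% of genes called; 0.196 without the library labelled whole ileum pig 1) and above it in the CD3E-zero CD2 gate (2.18 ± 0.38, adjusted p = 0.00634, edgeR, 5.36% called). Leaving out either pig ended every call of this test, that of IFNG included. No member passed this test of the difference in the CD4 gate (3.45% called) or the CD8B gate (0.246% called), although with the replicate block that pairs sums by pig IFNG in the CD4 gate and LTB in the CD8B gate passed too, 5 pairs in place of 3.

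LTA rested on few cells outside B lineage cells. The ileal CD4 gate had 29 and 41 UMIs in 15 and 8 cells, and the same gate of blood had 0 and 2 UMIs, a ratio of 36.3 of CPM with a counting interval of 9.69 to 306 (adjusted p = 0.0103, edgeR; 0.0905 and 0.194 without pig 1 and pig 2). One cell held 26 of the 41 UMIs in pig 2, and without it the level would be 12.6 CPM. LTA in the CD3E-zero CD2 gate was at 16.1 and 2.02 CPM in ileum and 0.937 and 0.866 CPM in PBMC (3.10 ± 0.95, adjusted p = 0.0224, edgeR), and 16 of the 33 UMIs of pig 1 were in 1 cell; without pig 1 the difference was 1.04 (adjusted p = 0.549, edgeR). Without the library labelled whole ileum pig 1 the pig 1 level was 28.3 CPM. CD79B gate levels of 13.7 and 17.2 CPM against 4.43 and 7.22 CPM did not overlap but missed the threshold (1.26 ± 0.62, adjusted p = 0.131, edgeR).

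CSF2 was detected in the CD3E-zero CD2 gate of ileum with 33 UMIs in 11 cells of pig 1 and 29 UMIs in 15 cells of pig 2. The highest cell held 13 of the 33 and 5 of the 29 UMIs, and without these UMIs the levels would be 9.75 and 6.94 CPM. PBMC of the same gate had 0 UMIs of 9059552 in both pigs together, which puts the ileal level at least 34.0-fold higher (adjusted p = 0.00284, edgeR; floor of 3 counts over the group). Without pig 2 the adjusted p was 0.0613 (edgeR). Without the library labelled whole ileum pig 1, pig 1 had 17 UMIs. The CD8B gate had no CSF2 UMI in either tissue, the CD4 gate had 5 in ileum and 0 in PBMC, the TRDC gate had 12 and 3, and the CD79B gate had 6 and 0 over 55127077 ileal UMIs. Beyond these gates, 15 and 5 UMIs fell in ungated ileal cells.

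Many of the ileal cells with CSF2 carried KIT or IL22, genes by which group 3 ILCs are known. In pig 1, 9 of 11 had a UMI of KIT and 8 had IL22, a cytokine of epithelial defence, compared with 13.0% and 8.15% of the 687 other cells of the gate. Pig 2 gave 9 and 13 of 15 cells, compared with 13.6% and 6.56% of 1173. CD3D or CD3G was found in 1 of 11 and 5 of 15 CSF2-positive cells but in 80.8% and 85.6% of the others. LTB accompanied CSF2 in 8 of 11 and 10 of 15 cells and TNF in 6 and 6, whereas IFNG was present in 1 and 0. CSF2-positive cells were deeper, with medians of 3659 and 3210 UMIs against 2469 and 2590, and the genes in this comparison were chosen after the data had been seen.

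TNF and LTA were detected in a larger share of ileal cells with LTB than without it in the CD4 and CD3E-zero CD2 gates of both pigs. In thinned cells TNF was detected in 9.18% of 98 LTB-positive and 1.33% of 600 LTB-negative cells of the CD3E-zero CD2 gate in pig 1, and in 11.0% of 109 and 0.649% of 1079 in pig 2. The 95% intervals did not overlap in either pig. In the CD4 gate the shares were 11.8% of 144 against 2.22% of 315 cells in pig 1, and 5.08% of 118 against 2.14% of 281 cells in pig 2, where the intervals overlapped. LTA followed in the CD4 gate, in 4.86% and 4.24% of LTB-positive and 0% and 0.356% of LTB-negative cells. IFNG went the other way in the CD8B gate of pig 2, in 6.10% of 82 LTB-positive and 17.1% of 1074 LTB-negative cells, with shares of 10.5% and 14.6% in pig 1 whose intervals overlapped. Cells were pooled over PP, whole ileum and non-PP, which differed in LTB and TNF, these gates mix cell types, and cells of 1 library are not independent, so the shares are a description.

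**Figure D4:**
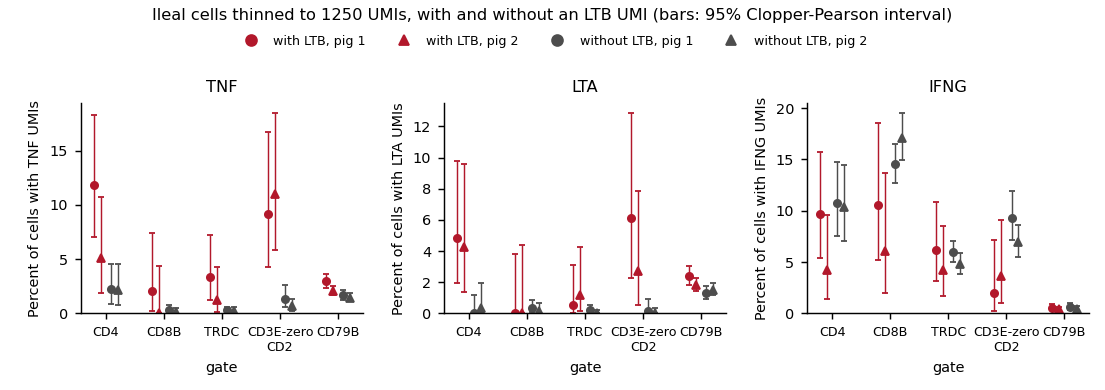
Percent of ileal cells of each gate, thinned to 1 depth, with a UMI of TNF, LTA or IFNG among cells with (red) and without (grey) an LTB UMI, for pig 1 (circle) and pig 2 (triangle), with 95% Clopper-Pearson intervals. In the CD3E-zero CD2 gate TNF was at 9.18% and 11.0% with LTB and at 1.33% and 0.649% without it, whereas IFNG in the CD8B gate was at 10.5% and 6.10% with LTB and at 14.6% and 17.1% without it.

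The third comparison asked whether Peyer's patches mattered for lymphocytes of the same gate. LTB was higher in PP than in non-PP in the CD4 and CD3E-zero CD2 gates, and TNF was higher in PP in the TRDC and CD3E-zero CD2 gates. IFNG did not differ detectably in any gate. Of 25 pairs of gene and gate 5 passed, 1 of 5 members in the CD4 gate (0.764% of 8896 genes called), 0 in the CD8B gate (0.0225%), 1 in the TRDC gate (0.405%), 3 in the CD3E-zero CD2 gate (1.70%) and 0 in the CD79B gate (0.214%). The CD79B gate of non-PP held only 26 and 57 cells, whose antibody-secreting cell markers summed to 33928 and 18616 CPM, so it compares unlike cells.

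LTB in the CD4 gate was 707 and 862 CPM in PP, 41.7 and 52.6 CPM in non-PP, and 484 and 297 CPM in whole ileum (PP minus non-PP 4.02 ± 0.62, adjusted p = 0.00351, edgeR; 0.198 and 0.142 without pig 1 and pig 2). Non-PP rested on 7 and 15 LTB UMIs. LTB in the CD3E-zero CD2 gate was 1302 and 565 CPM in PP, 182 and 34.6 CPM in non-PP, and 229 and 226 CPM in whole ileum (3.21 ± 0.54, adjusted p = 0.00298, edgeR). PP was above non-PP in both pigs in each gate, with whole ileum between them. The TRDC gate had 199 and 187 CPM in PP and 45.9 and 37.8 CPM in non-PP (2.24 ± 0.51), a difference that missed the threshold (adjusted p = 0.063, edgeR) and passed it with the replicate block by pig (2.25, adjusted p = 0.033, edgeR). CD8B gate levels were 108 and 151 CPM against 19.0 and 32.5 CPM (2.41 ± 0.54, adjusted p = 0.19, edgeR).

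TNF in the CD3E-zero CD2 gate was 74.3 and 53.3 CPM in PP, 8.75 and 5.40 CPM in non-PP, and 16.6 and 14.8 CPM in whole ileum (3.40 ± 0.60, adjusted p = 0.00469, edgeR; 0.0514 and 0.209 without pig 1 and pig 2). In the TRDC gate it was 17.3 and 7.44 CPM against 0.493 and 2.31 CPM, on 41 and 10 UMIs (3.21 ± 0.64, adjusted p = 0.0267, edgeR), and without the library labelled whole ileum pig 1 the adjusted p was 0.0666 (edgeR), and without pig 1 or pig 2 it was 1.00 or 0.0511. LTA in the CD3E-zero CD2 gate had 23 and 4 UMIs in PP and 1 and 0 in non-PP (adjusted p = 0.0172, edgeR); 16 of the 23 were in 1 cell, and the call was lost without the library labelled whole ileum pig 1 (adjusted p = 0.0511, edgeR) and without pig 1 or pig 2 (0.199 and 0.103). CSF2 had 3 and 20 UMIs in the PP cells of that gate and 14 and 7 in the non-PP cells, lower in PP in pig 1 and higher in PP in pig 2.

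**Figure D5:**
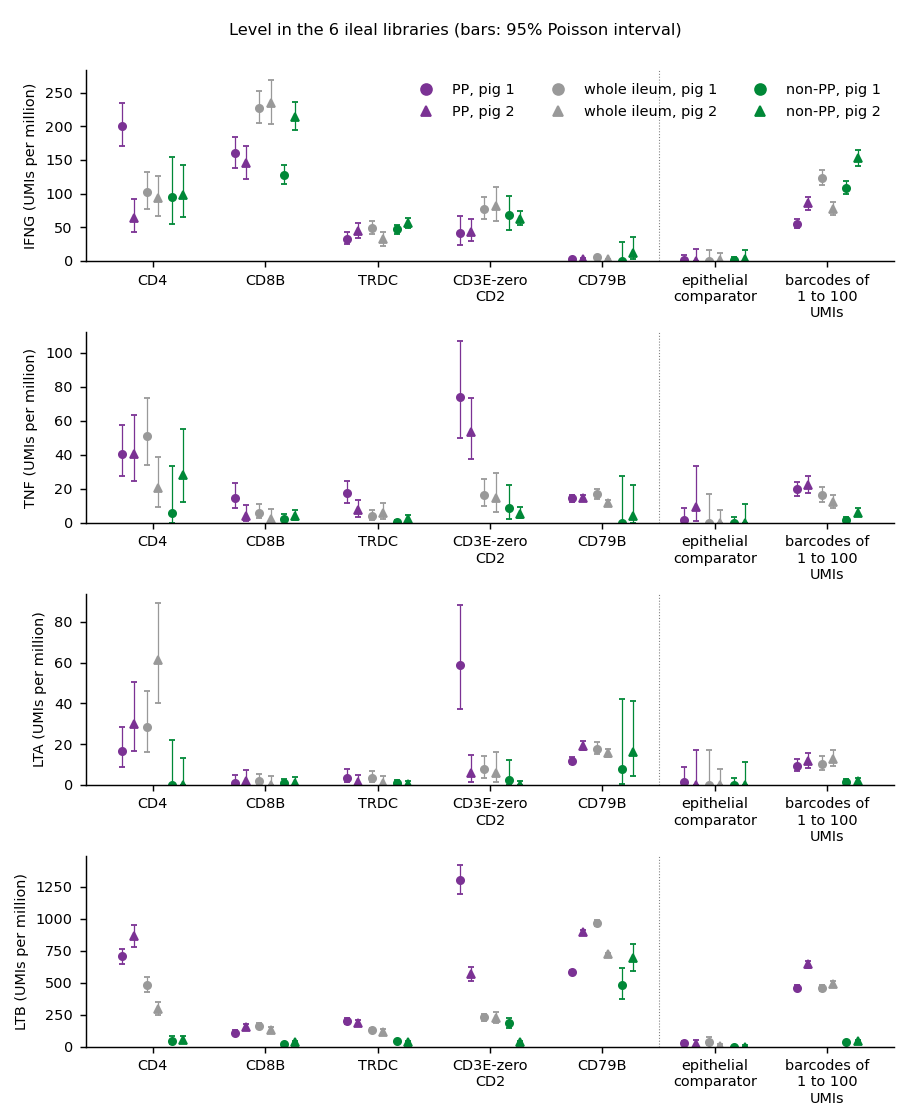
Level of IFNG, TNF, LTA and LTB (CPM, linear axes) in the 6 ileal libraries by gate, in epithelial comparator cells and in barcodes of 1 to 100 UMIs, for PP (purple), whole ileum (grey) and non-PP (green), with a circle for pig 1 and a triangle for pig 2 and bars for 95% Poisson intervals. LTB in the CD4 gate stood at 707 and 862 CPM in PP and 41.7 and 52.6 CPM in non-PP, and LTB in the low-count barcodes moved in the same direction, from 459 and 645 CPM to 37.0 and 47.1 CPM.

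Other measures moved with this comparison. Low-count barcodes had 459 and 645 CPM of LTB in PP against 37.0 and 47.1 CPM in non-PP, and 19.8 and 22.4 CPM of TNF against 1.85 and 5.85 CPM, whereas epithelial cells of PP carried 26.3 and 23.2 CPM of LTB and those of non-PP 0 and 0. After 10% of each sum was removed in the proportions of the low-count barcodes, LTB remained called in the CD4 gate (4.11, adjusted p = 0.0111, edgeR) and the CD3E-zero CD2 gate (3.20, adjusted p = 0.0146, edgeR) and so did TNF in the latter (3.46, adjusted p = 0.0217, edgeR), whereas TNF in the TRDC gate (adjusted p = 0.234, edgeR) and LTA in the CD3E-zero CD2 gate (adjusted p = 0.0701, edgeR) were no longer called. Antibody-secreting cell markers in the CD3E-zero CD2 gate summed to between 4291 and 10131 CPM in PP and 243 and 1318 CPM in non-PP, myeloid markers to between 2830 and 4880 CPM against 326 and 718 CPM, and T cell markers to between 1046 and 1616 CPM against 1735 and 3434 CPM. In the CD4 gate myeloid markers moved the other way, at 1323 and 1620 CPM in PP and 5294 and 2353 CPM in non-PP, and epithelial markers were at 48.3 and 17.1 CPM against 1274 and 116 CPM. The part of these cells in the differences was not tested. Restricted to cells without CD3D and CD3G, LTB was 1937 and 897 CPM in PP and 617 and 232 CPM in non-PP (2.02, adjusted p = 0.0258, edgeR), and TNF was no longer called (2.71, adjusted p = 0.0979, edgeR).

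Genes around the 5 cytokines were read from lists of receptors, signalling components, transcription factors and related cytokines. Of 8 receptor symbols 6 were matched and tested. Over all 10564 genes 681 were higher and 435 lower in ileum in the CD4 gate, 727 and 600 in the CD8B gate, 1102 and 908 in the TRDC gate, 1881 and 1606 in the CD3E-zero CD2 gate and 1901 and 1897 in the CD79B gate, and the counts for each list stand against these. IFNGR1 was higher in ileum in the CD4, CD8B and TRDC gates (3.15 and 2.21 on the log2 scale in the CD4 and CD8B gates), from 12.3 and 16.3 CPM to 101 and 168 CPM in the CD4 gate. TNFRSF1B was higher in the CD4 gate, at 275 and 307 CPM against 70.8 and 67.2 CPM (2.04 ± 0.27). TNFRSF1A, the more widely expressed TNF receptor, was lower in ileum in 5 of 5 gates, by -1.69 in the CD4, -1.15 in the CD8B, -1.32 in the TRDC, -2.13 in the CD3E-zero CD2 and -3.38 in the CD79B gate. LTBR and CSF2RB, both best known from stromal and myeloid cells, were lower in the CD3E-zero CD2 gate of ileum (-2.62 and -2.13), where 5 of 6 receptors fell. No receptor passed between PP and non-PP.

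A list that joined feedback genes of NF-κB with general immediate early and activation genes was mostly called higher in ileum. NF-κB is a transcription factor downstream of TNF receptors, but the list is not specific to it. Of 15 tested, 13 rose in the CD4 gate, 11 in the CD8B gate, 10 in the TRDC gate, 8 in the CD3E-zero CD2 gate, where 1 fell, and 10 in the CD79B gate, with median differences of 3.09, 2.23, 2.40, 1.84 and 2.03 against medians of all genes between 0.00 and 0.06. TNFAIP3, which encodes the inhibitor A20, was at 382 and 335 CPM in the CD8B gate of ileum and 23.8 and 21.6 CPM in PBMC (3.98 ± 0.28). NR4A1, an immediate early gene, rose by 4.56 in the CD8B gate, and CD69, an activation and tissue-retention receptor, by 4.89 in the CD3E-zero CD2 gate. Only ileal tissue was digested with enzyme, so tissue and cell preparation cannot be told apart in these libraries. Of the 18 components of receptor signalling, 6 were higher and 0 lower in the CD4 gate and 5 higher and 9 lower in the CD79B gate.

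Regulators of cytokine-producing lymphocytes moved in both directions. TBX21, which drives IFNG transcription, was lower in ileum in the CD8B gate (18.3 and 16.1 CPM against 129 and 109.7 CPM, -2.79) although IFNG was higher there, and EOMES was lower as well (-2.95). Of 25 regulators 13 rose and 4 fell in the CD3E-zero CD2 gate, with IL23R, the receptor chain for interleukin 23, at 13.2 and 11.6 CPM against 0 and 0.289 CPM. IL22 had no UMI in any gate of blood and 1052 and 611 CPM in the ileal CD3E-zero CD2 gate. Of 14 genes known to be induced by interferon gamma, 1 rose and 2 fell in the CD4 gate of ileum, 0 and 4 in the CD8B gate, 2 and 3 in the TRDC gate, 0 and 9 in the CD3E-zero CD2 gate and 1 and 10 in the CD79B gate. CXCL10, an interferon-induced chemokine, was at 41.0 and 57.8 CPM in the CD3E-zero CD2 gate of ileum and 1412 and 3802 CPM in PBMC. Against the other 4 gates of blood, 9 of the 14 induced genes were higher and 0 lower in this gate (24.5% of all genes called). In ileum 3 were higher and 2 lower (15.8% of all genes called). The part of the blood myeloid cells of the gate was not tested. Among 10 other TNF family ligands, TNFSF10 was lower in ileum in 5 of 5 gates (-0.96 to -2.24), and of 14 other lymphocyte cytokines 5, 6, 4, 7 and 3 rose and 0, 1, 0, 1 and 1 fell in the CD4, CD8B, TRDC, CD3E-zero CD2 and CD79B gates.

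Between PP and non-PP few listed genes passed, all in 3 gates. In the CD3E-zero CD2 gate NFKB1 (1.57), the survival gene BCL2A1 (2.16), TNFAIP8 (1.22), IL7R (1.84), IRF8 (2.40) and IL22 (2.87) were higher in PP. IL22 was at 2545 and 1896 CPM in PP and 486 and 134 CPM in non-PP. In the CD4 gate CD69 was higher in PP (593 and 627 CPM against 161 and 238 CPM, 1.58), as was TNFAIP8 (1.10), whereas RUNX3 (-1.65), IL12RB2 (-4.19), TNFSF14 (-2.51), CCL4 (-3.39), CCL5 (-1.89) and GBP1 (-1.03) were lower in PP. CCL5 was also lower in the CD79B gate (-2.09).

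Over the 20 sums of gate, tissue and pig, the genes whose log2 level followed each cytokine most closely by Pearson correlation were PLD3, CPD, BCAP29, CCL4 and SMPD3 for IFNG (0.90 to 0.93), PELI1, CH25H, PAPSS2, ID4 and DNASE1L3 for TNF (0.85 to 0.90), LIPG, BCL10, DMPK, PSEN2 and PHACTR1 for LTA (0.83 to 0.89), FADS3, FAM89A, FOXP1, C2orf76 and TBC1D10A for LTB (0.81 to 0.87) and SH3PXD2A, SLC7A8, AKAP5 and GPRC5D for CSF2 (0.84 to 0.87). Among the cytokines themselves, TNF and LTA were the most alike (0.69), and IFNG and LTB ran most against each other (-0.70). The sums share libraries and 2 pigs, and these correlations describe them only.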

How the data were processed

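Single-cell suspensions of ileum and PBMC were captured with a 10x Genomics 3′ kit (version 2). The authors aligned reads to Sscrofa11.1 with a modified Ensembl 97 annotation using Cell Ranger (4.0.6 in the submitters' processing notes), and deposited raw UMI counts per barcode, 1 matrix per library, before their correction for free RNA and their cell filters. The 4 runs of a library were counted as 1 sample.

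Cells were kept with at least 1250 UMIs, 550 genes and at most 12.5% mitochondrial UMIs. Cells were thinned to 1250 UMIs for shares of cells with a UMI. Free RNA was not subtracted and doublets were not removed, except in the alternatives (10% of UMIs removed; scores above 0.25 removed, 1563 cells). Counts were summed per gate, tissue and pig (20 sums) or per gate, ileal dissection and pig (30 sums) and tested with edgeR 4.0.16 (R 4.3.3; TMM, quasi-likelihood F test, Benjamini-Hochberg adjustment over 10564 or 8896 genes, threshold 0.05). SE is the absolute log2 difference divided by the square root of F. DESeq2 1.42.0 was an alternative. Poisson and Clopper-Pearson intervals (95%) and the floor of 3 counts cover counting error only. The p-values measure the spread between sums labelled pig 1 and pig 2, pooled over gates with no pig term. As 1 ileal library labelled pig 1 held Y-linked RNA at the level of pig 2, this is not a clean spread between 2 animals. Sums of the same pig were taken as independent. Their deviations correlated at a median of 0.181 and up to 0.509 over the 20 sums, and at 0.0751 and up to 0.611 over the 30 sums.

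Pig numbers pair the sums as labels of the same animal, apart from the doubt over the library labelled whole ileum pig 1. Deviations of ileum and PBMC sums of a gate from the group means correlated at 0.0763 to 0.181 (0.130 to 0.315 without that library).

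The 5 genes, the gates and the gene lists were chosen with earlier results of these data known, and the gate without CD3D and CD3G was added after seeing the data. Named genes were the 5 members, their receptors, the 2 called genes with the largest rise and the 2 with the largest fall per list and contrast, and the 5 genes most correlated with each member; TNFRSF1A in the CD3E-zero CD2 gate and TNFSF10 in the CD79B gate, NR4A1 and CD69 are given beyond that. CSF2RA and TNFRSF14 were not analysed here. Results of 1 gene that the rule names are not reported here. On simulated counts of the ileum against PBMC comparison in the CD8B gate (10564 genes), 65% of genes changed by 1.5 on the log2 scale were recovered. Of those changed by 1 and 0.5, 27.5% and 0% were recovered. For PP minus non-PP in that gate (8896 genes) the shares were 52.5%, 25% and 0% at 1.5, 1 and 0.5. The simulated sums had no pig effect and the changed genes were drawn at random.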

Additional observations from a re-analysis of the deposited data

Results flagged for a closer look

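The tissue difference of LTB, ileum minus PBMC, departed from that of the other 4 gates in both directions. In the TRDC gate it was lower than in the others by -1.94 on the log2 scale (SE 0.38, adjusted p = 0.0317, edgeR), and in the CD3E-zero CD2 gate it was higher by 2.18 (SE 0.38, adjusted p = 0.00634, edgeR). The tissue difference of IFNG in the CD79B gate lay below that of the other gates by -1.79 (SE 0.40, adjusted p = 0.00523, edgeR), where the gene was at 3.82 and 3.02 CPM in ileum and 3.44 and 2.98 CPM in PBMC. None of the 3 passed when either pig was left out of the gate tested. The mix of PP, non-PP and whole ileum in the ileal sums differed by gate, and its part in these results was not tested. In non-PP alone LTB in the CD3E-zero CD2 gate was at 182 and 34.6 CPM, against 150 and 138 CPM in PBMC.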

How the results depend on the processing

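When 1 of the 2 pigs was left out, calls went from 13 to between 7 and 8 for ileum minus PBMC, from 3 to 0 for the tissue difference against the other gates, from 16 to between 10 and 12 for gates within ileum, from 7 to between 5 and 7 within PBMC and from 5 to 1 for PP minus non-PP. Sums per library in place of sums per pig gave 8 calls for ileum minus PBMC, 1 for the test against the other gates and 4 within PBMC. The test against the other gates gave 5 calls with DESeq2, 5 with the replicate block, 9 without the filter on low counts and 5 without CD3D- and CD3G-positive cells. PP minus non-PP gave 8 calls without the filter, 9 with overlapping gates, and 3 each with stricter cells, with 10% ambient UMIs removed and without the library labelled whole ileum pig 1. Beyond the test against the other gates, the replicate block added the calls of IFNG in the CD3E-zero CD2 gate (ileum minus PBMC) and LTB in the TRDC gate (PP minus non-PP) and changed no other call of the 5 genes.

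Some directions reversed. LTB in the CD4 gate, ileum minus PBMC, was -0.48 without pig 1 and 0.22 without pig 2. IFNG in the CD79B gate was -0.089 without pig 1, 0.0092 without pig 2, 0.72 with overlapping gates, 0.0012 with CD3E required in T cell gates, 0.37 with doublets removed and 0.012 with sums per library. Between PP and non-PP, IFNG was -0.53 and 1.08 in the CD4 gate and -0.43 and 0.32 in the CD8B gate without pig 1 and without pig 2, and CSF2 in the CD3E-zero CD2 gate was 3.31 without pig 1, -1.96 without pig 2, -1.37 with overlapping gates and -0.56 without CD3D- and CD3G-positive cells. IFNG in that gate of PBMC against the other gates was -1.19 without CD3D- and CD3G-positive cells. The causes were not tested.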

Other observations

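LTB in the ileal CD3E-zero CD2 gate was found in 131 and 154 cells before thinning, and 45 and 35 of these had 5 or more UMIs. In PBMC it was found in 155 and 427 cells of the gate, of which 14 and 43 had 5 or more. After thinning to 1 depth it was detected in 14.0% and 9.18% of ileal cells and in 17.6% and 16.9% of PBMC cells of the gate, whereas its level was higher in ileum (423 and 171 CPM against 150 and 138 CPM). Share and level thus ran in opposite directions, and no order is read from the share.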
